A study of Homo sapiens with 104 samples.

Results

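The genes of glycolysis and the genes induced by low oxygen were followed in human lymphoblastoid cells treated with MNNG, a methylating agent. The set named 36 genes. Of these, 35 had at least 1 probe set that the platform annotation gives to a single gene symbol, and all 35 passed the filter on low signal, among 13842 genes tested and 19775 with such a probe set. The remaining member, CA9, was not analysed here. The rule takes members by gene symbol and uses no measured value, but the list was drawn up with earlier results of these data known.

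The cells were 24 numbered lymphoblastoid lines of a resource panel, B cells immortalised with Epstein-Barr virus, together with the lymphoblastoid lines TK6 and MT1. Cells taken in mid log phase were measured untreated and after exposure to MNNG (N-methyl-N'-nitro-N-nitrosoguanidine), with 2 arrays for each line and condition. No dose or time of exposure is stated in the sources used here. MT1 was derived from TK6 and lacks a working mismatch repair protein, MSH6, and each of them is a single line, so a difference between them is one between these lines only. Nothing says that duplicate arrays came from separate cultures, so p-values from single arrays measure only the spread between duplicates, which may be technical. Levels are log2 of the deposited intensity plus 16 after quantile normalisation, and a change is MNNG minus untreated on that scale, which understates changes of dim genes. A probe set level is not comparable between genes.

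Glycolysis turns glucose into pyruvate, and lactate dehydrogenase regenerates the cofactor that keeps it running when mitochondria do not. Cells short of oxygen raise most of these enzymes through the transcription factor HIF1, made of HIF1A and ARNT. Prolyl hydroxylases (EGLN1, EGLN3) mark HIF1A for destruction while oxygen is present, and EGLN1 and EGLN3 are HIF targets themselves. Other HIF targets act in mitophagy (BNIP3, BNIP3L), collagen hydroxylation (P4HA1, P4HA2), pyruvate oxidation (PDK1), vessel growth (VEGFA, ADM) and histone demethylation (KDM3A). Lymphoblastoid cells in culture divide fast and are strongly glycolytic.

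HIF1 binds a core of 5 bases, ACGTG or GCGTG, the hypoxia response element. In the 250 bases before the RefSeq start of each gene (GRCh38.p14, the farthest upstream entry where a gene has several), either core on either strand occurred in 20 of the 31 members with an entry (64.5%) and in 43.1% of 27305 genes. ACGTG occurred in 13 members (41.9%, against 18.6%) and GCGTG in 11 (35.5%, against 31.9%). No test was made, and a match is not a site. BNIP3 held 6 matches, ALDOC and LDHA 5 each, where a palindrome CACGTG counts once on each strand. The windows of the 6 members with an entry and the largest called falls in the panel are shown, so that the letters of the genes with the largest falls can be read. They are PFKFB4 (chr3:48556804-48557053, minus strand), P4HA1 (chr10:73096867-73097116, minus strand), ALDOC (chr17:28576896-28577145, minus strand), PKM (chr15:72231191-72231440, minus strand), GPI (chr19:34364742-34364991, plus strand) and KDM3A (chr2:86441121-86441370, plus strand). Each reads 5′ to 3′ on the strand of the gene, with cores in capitals.
PFKFB4: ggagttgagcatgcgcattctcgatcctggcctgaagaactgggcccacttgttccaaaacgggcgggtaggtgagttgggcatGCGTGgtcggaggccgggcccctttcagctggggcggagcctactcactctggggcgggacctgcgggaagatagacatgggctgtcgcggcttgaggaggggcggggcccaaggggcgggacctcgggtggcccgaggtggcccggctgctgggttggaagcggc
P4HA1: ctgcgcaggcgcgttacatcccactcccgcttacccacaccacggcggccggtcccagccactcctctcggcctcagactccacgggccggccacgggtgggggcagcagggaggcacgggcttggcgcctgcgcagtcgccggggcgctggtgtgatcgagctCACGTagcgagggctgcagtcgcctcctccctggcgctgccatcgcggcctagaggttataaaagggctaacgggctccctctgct
ALDOC: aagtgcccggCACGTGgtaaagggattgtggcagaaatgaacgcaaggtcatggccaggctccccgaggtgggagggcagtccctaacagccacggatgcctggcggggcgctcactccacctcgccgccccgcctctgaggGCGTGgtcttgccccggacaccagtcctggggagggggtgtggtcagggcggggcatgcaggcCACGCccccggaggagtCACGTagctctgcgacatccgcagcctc
PKM: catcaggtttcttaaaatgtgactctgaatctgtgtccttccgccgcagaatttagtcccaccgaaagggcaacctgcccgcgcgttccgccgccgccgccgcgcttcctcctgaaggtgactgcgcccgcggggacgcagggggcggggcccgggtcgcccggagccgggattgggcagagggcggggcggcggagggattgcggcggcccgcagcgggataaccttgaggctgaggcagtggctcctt
GPI: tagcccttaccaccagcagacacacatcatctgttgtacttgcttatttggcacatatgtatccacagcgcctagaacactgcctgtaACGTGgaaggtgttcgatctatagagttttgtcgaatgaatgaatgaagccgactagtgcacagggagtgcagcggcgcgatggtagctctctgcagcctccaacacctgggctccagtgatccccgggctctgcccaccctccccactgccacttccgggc
KDM3A: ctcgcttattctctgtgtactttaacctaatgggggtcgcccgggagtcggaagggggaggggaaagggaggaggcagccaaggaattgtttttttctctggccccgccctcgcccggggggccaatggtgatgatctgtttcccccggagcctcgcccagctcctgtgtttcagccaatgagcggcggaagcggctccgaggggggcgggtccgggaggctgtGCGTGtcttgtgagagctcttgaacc

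ALDOC held 5 matches in this window. PFKFB4, P4HA1, GPI and KDM3A held 1 each, and PKM held none.

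On 22 of the 52 MNNG arrays a spiked bacterial control (cre 5′) read 5.19 to 6.45 log2 units below a second probe set of the same control. These arrays were left out, and on the 82 kept the first read 0.082 to 0.83 above the second. Of the panel, 19 lines kept an MNNG array (8 kept both and 11 kept 1), TK6 kept both and MT1 kept 1. All 9 B-cell markers with a probe set were above the low-signal cut, with a mean level of 8.77 to 11.0 on untreated and 8.81 to 10.7 on MNNG arrays. Of the other lists, 2 of 5 T-cell markers were above it (CD3D and CD3E; mean level 5.41 to 6.05 untreated and 5.45 to 5.71 after MNNG), 3 of 4 myeloid ones (5.53 to 6.36 and 5.61 to 6.28), all 4 fibroblast ones (5.84 to 6.33 and 5.83 to 6.24) and 1 of 4 epithelial ones (5.34 to 6.67 and 5.51 to 6.58). The highest of these were KRT8, with an untreated mean of 7.498, LYZ (7.21) and COL1A1 (6.97), while CD3G, CD8A and EPCAM were at 5.31, 5.31 and 5.32, near the floor of 5. A sign of RNA quality moved with treatment: the ACTB 3′ minus 5′ difference had a median of 0.051 on untreated and 0.29 on MNNG arrays and was higher after MNNG in 18 of 19 lines (mean 0.21, SD 0.11), while in TK6 it rose by 0.093. The GAPDH 3′ minus 5′ medians were -0.019 and 0.022. The part of these differences in the results was not tested.

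Across the 19 panel lines, 28 of 35 members fell after MNNG and none rose, while 13.8% of all genes were called lower and 28.7% higher (limma, line as block, adjusted p below 0.05). The median change of the members was -0.35, against 0.037 for all genes. The largest falls were those of PFKFB4, P4HA1, ALDOC and ZNF395, each 1.70-fold to 1.84-fold. In 15 members the MNNG level lay below the untreated level in all 19 lines, which held for 1.24% of all genes. PFKFB3, SLC2A1, P4HA2, EGLN3, ADM, NDRG1 and HIF1A did not pass the test. Fewer cells with a transcript and less transcript per cell cannot be told apart in such bulk RNA. Scaling moved the balance of calls over all genes more than the number of members called. Calls were lower in 32.5% of called genes here, 71% with median-centred arrays and 19% with values as deposited. The other scalings left 30 and 28 members lower, none higher. Sizes moved too: the median member change was -0.50 with median-centred arrays and -0.35 as deposited, beside -0.021 and 0.13 for all genes.

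Of the genes for glucose entry and trapping, SLC2A3, HK1, HK2 and GPI fell and SLC2A1 did not pass the test. SLC2A3, the high-affinity glucose transporter GLUT3, had untreated levels of 6.82, 7.72 and 9.61 (lowest, median and highest line) and MNNG levels of 6.47, 7.48 and 8.88. It fell by 0.41 ± 0.058 (SE, n = 19 lines), with adjusted p = 5.7e-06, and was lower in 19 of 19 lines, although the ranges of the lines overlapped. SLC2A1, the ubiquitous transporter GLUT1, changed by -0.025 ± 0.041 (adjusted p = 0.652). HK1 and HK2, which trap glucose as its phosphate, were lower in 19 of 19 lines, with mean changes of -0.35 and -0.41. GPI, the next enzyme, fell by 0.57 ± 0.05 (adjusted p = 2.23e-08), from untreated levels of 10.82, 11.10 and 11.72 to 10.07, 10.64 and 11.17.

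Of the genes that set phosphofructokinase flux, PFKFB4 moved most. It makes and degrades fructose 2,6-bisphosphate, the activator of phosphofructokinase. Its untreated levels were 6.95, 7.63 and 9.09 (lowest, median and highest line) and its MNNG levels 5.92, 6.93 and 8.47. It fell by 0.88 ± 0.094 (SE, n = 19), 1.84-fold, with adjusted p = 1.72e-07. The line changes ran from -1.73 in line 20 to -0.25 in line 12, so every line fell. Its relative PFKFB3 changed by -0.073 ± 0.04 (adjusted p = 0.155) and was lower in 13 of 19 lines. The 3 phosphofructokinase subunits fell by less: PFKP by 0.36, PFKL by 0.35 and PFKM by 0.24.

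The aldolases both fell. ALDOC, the brain-type aldolase, had untreated levels of 8.64, 9.56 and 10.87 and MNNG levels of 6.99, 8.86 and 10.60 (lowest, median and highest line), and fell by 0.78 ± 0.12 (adjusted p = 1.18e-05). Its line changes ranged from -2.11 in line 4 to -0.0011 in line 12. ALDOA, the muscle-type and main aldolase, fell by 0.39 ± 0.039 (adjusted p = 6.7e-08) with a narrower range, -0.80 to -0.036. On the probe sets used, TPI1, PGK1, ENO1, PGAM1 and GAPDH, further down the pathway, fell by smaller amounts. PKM and ENO2, also further down, fell by more than ALDOA, with changes of -0.70 and -0.43. TPI1, PGK1 and ENO1 fell by 0.19, 0.21 and 0.15. Their other probe sets gave -0.27 to -0.11 (TPI1), -0.37 to 0.22 (PGK1) and -0.42 to 0.061 (ENO1), so size depends on the probe set. PGAM1 fell by 0.081 and GAPDH by 0.058, 1.06-fold and 1.04-fold. The GAPDH value is that of the array's 5′ control probe set.

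ENO2, the neuronal enolase, fell by 0.43 ± 0.047 (adjusted p = 2.58e-07) and was lower in 19 of 19 lines. LDHA, which makes lactate, had untreated levels of 12.54, 12.76 and 12.92 and MNNG levels of 12.26, 12.67 and 12.85. It fell by 0.12 ± 0.027 (adjusted p = 0.000925) and was lower in 17 of 19 lines. PDK1, the kinase that closes the pyruvate dehydrogenase gate, fell by 0.39 ± 0.052 (adjusted p = 3.1e-06). PKM, pyruvate kinase, fell by 0.70 ± 0.061 (adjusted p = 2.09e-08), but this rests on 1 probe set. The other PKM probe set changed by -0.019 in the panel (adjusted p = 0.828), the untreated duplicates of the first differed by -0.32 on average, and PKM was the 1 member that did not differ between untreated lines.

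Among the HIF targets outside glycolysis, P4HA1 fell in every line. This catalytic subunit of collagen prolyl hydroxylase had untreated levels of 9.15, 9.69 and 10.58 and MNNG levels of 8.17, 8.89 and 9.76 (lowest, median and highest line), and fell by 0.86 ± 0.068, 1.82-fold (adjusted p = 1.07e-08). The smallest fall was -0.34, in line 14. Its paralogue P4HA2 changed by -0.07 (adjusted p = 0.233) and lay below 5.5, near the floor of 5, on 18 of 82 arrays. BNIP3 and BNIP3L, mitochondrial receptors for autophagy, fell by 0.55 ± 0.10 and 0.63 ± 0.10. BNIP3 levels were 9.15, 10.00 and 10.91 untreated and 7.86, 9.47 and 10.73 after MNNG, and it was lower in 19 of 19 lines.

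ANKRD37, an ankyrin-repeat gene known mainly as a HIF target, had untreated levels of 8.39, 9.83 and 11.72 and MNNG levels of 7.57, 9.13 and 11.68. It fell by 0.50 ± 0.10 (adjusted p = 0.00045). The spread between lines was wide, from -0.037 in line 22 to -2.10 in line 4. ZNF395, a HIF-induced transcription factor, fell by 0.77 ± 0.088 (adjusted p = 4.2e-07), KDM3A fell by 0.55 ± 0.051 (adjusted p = 3.25e-08) and MXI1, a MYC antagonist, fell by 0.46 ± 0.076 (adjusted p = 3.88e-05). VEGFA, the endothelial growth factor, fell by 0.34 ± 0.052 (adjusted p = 1.35e-05), and all of its 4 probe sets were lower. ADM, encoding adrenomedullin, and NDRG1, a stress-induced gene, did not pass the test. ADM lay below 5.5 on 24 arrays.

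Of the oxygen sensors, EGLN1 fell by 0.28 ± 0.045 (adjusted p = 3.28e-05) and was lower in 19 of 19 lines, and EGLN3 changed by -0.10 (adjusted p = 0.0731), near the floor on 27 of 82 arrays. EGLN3 passed the test without line 12 or line 23 and with arrays median-centred, and its second probe set was called lower, at -0.30. HIF1A itself changed by -0.024 ± 0.042 (adjusted p = 0.676), with 11 lines lower and 8 higher. Without replicate 2 it was called lower, at -0.15 (adjusted p = 0.00309). Leaving out a replicate also drops each line whose only MNNG array it was, and 11 of 19 lines kept 1. Replicate and set of lines therefore cannot be told apart in such a fit. Over all 73 tested probe sets of the members, 55 were lower and 2 higher, against 16.9% lower of 38272 probe sets. The 2 higher ones belong to HK2 and PGK1, at levels near 6. Probe sets of the same gene are not independent. Without 1 set of replicates the small falls lost the test: 21 members were lower without replicate 1 and 27 without replicate 2, the first losing VEGFA, LDHA, ENO1, PGK1, TPI1, PGAM1 and GAPDH.

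**Figure D1:**
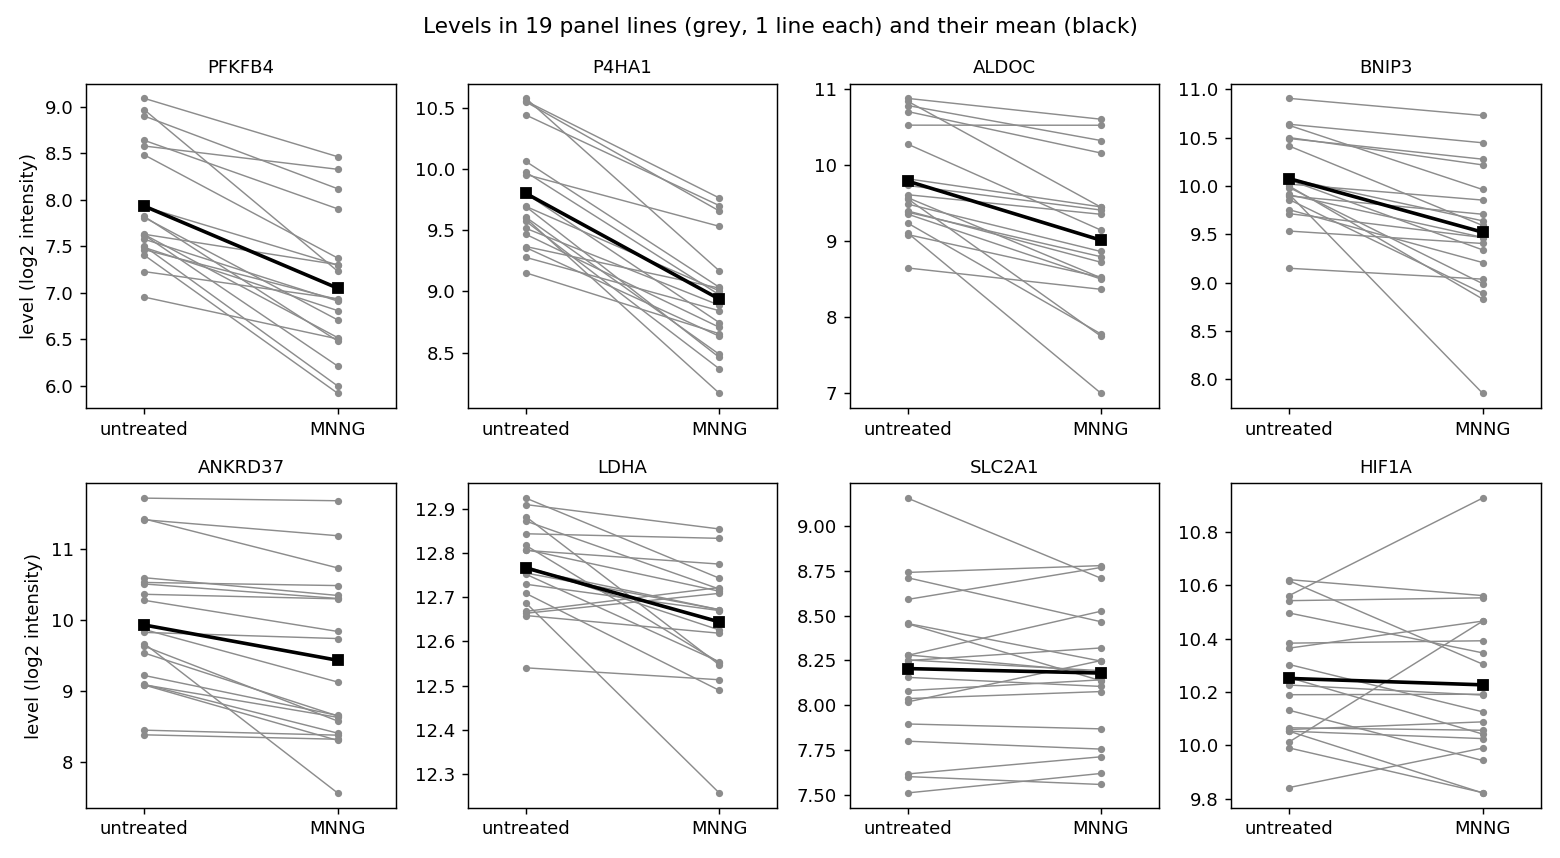
Levels of 8 genes, as log2 intensity on the vertical axis, in the 19 panel lines untreated and after MNNG; grey lines join the means of each line and black squares are the means over lines. PFKFB4, P4HA1, ALDOC, BNIP3 and ANKRD37 slope down in every line, LDHA falls by 0.12 on average, and SLC2A1 and HIF1A go both ways.

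Changes of isoforms of the same step were set side by side without a test. The change of PFKFB4 lay 0.81 below that of PFKFB3 on average (SD 0.40) and was the lower of the pair in 19 of 19 lines. The change of P4HA1 was lower than that of P4HA2 in 19 of 19 lines, by 0.79 on average. SLC2A3 had a lower (more negative) change than SLC2A1 in 18 of 19 lines and ENO2 a lower one than ENO1 in 17. ALDOC had a lower change than ALDOA, and EGLN1 than EGLN3, in 15. HK2 and HK1 differed by -0.056 (SD 0.21), BNIP3 and BNIP3L by 0.077 (SD 0.24), and PFKP and PFKL by -0.015 (SD 0.14), all within 1 SD of the lines. P4HA2 and EGLN3 lay near the floor on many arrays, which limits how far they can fall.

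Lines differed in how far the members fell. The median member change was lowest in line 15 (-0.54), line 20 (-0.54), line 17 (-0.50) and line 4 (-0.50), and nearest to 0 in line 14 (-0.070) and line 10 (-0.075). Lines 15, 20, 17 and 4 kept 1 MNNG array each, while lines 14 and 10 kept 2. The match is not complete: line 9 (-0.45) kept 2 and line 22 (-0.21) kept 1. The part of the number of arrays in this order was not tested. Line 14 was also the 1 line whose ACTB 3′ minus 5′ difference did not rise after MNNG (-0.088), and the other 18 rose by 0.014 to 0.38, 0.22 in line 10. The part of RNA quality in the differences between lines was not tested. Line 4 gave the largest fall or smallest rise of 12 members, line 20 of 8 and line 15 of 6. Line 14 gave the smallest fall or largest rise of 11 members and line 12 of 8. In line 20, 8 members fell by over 1 log2 unit (0.376% of all genes), and in lines 4 and 15, 7 did (0.556% and 0.130%). Line 17 had 3 such members and the largest share of all genes, 1.71%. In 9 of the 19 lines no member fell so far, beside 0.0144% (line 2) to 0.188% (line 14) of all genes. The change differed between lines beyond the spread of duplicates for 17 of 35 members, against 6.75% of all genes (limma F test, adjusted p below 0.05).

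The largest F values among members were those of ANKRD37 (22.2), BNIP3 (16.6), MXI1 (12.9), ZNF395 (12.5), LDHA (12.1), PFKFB4 (11.9), ALDOC (10.8) and P4HA1 (10.5). ANKRD37, BNIP3 and ALDOC fell most in line 4, with changes of -2.10, -2.05 and -2.11, and MXI1 fell most in line 20 (-1.53), where line 4 changed by -0.24. LDHA changed little in size, -0.43 in line 4 to 0.054 in line 14, and its duplicates differed by an SD of only 0.024 within lines. The count of members depended on scaling: it was 5 with median-centred arrays (372 genes called in all, against 935) and 6 with values as deposited (54 genes). Without line 4 it was 13 members and 472 genes.

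**Figure D2:**
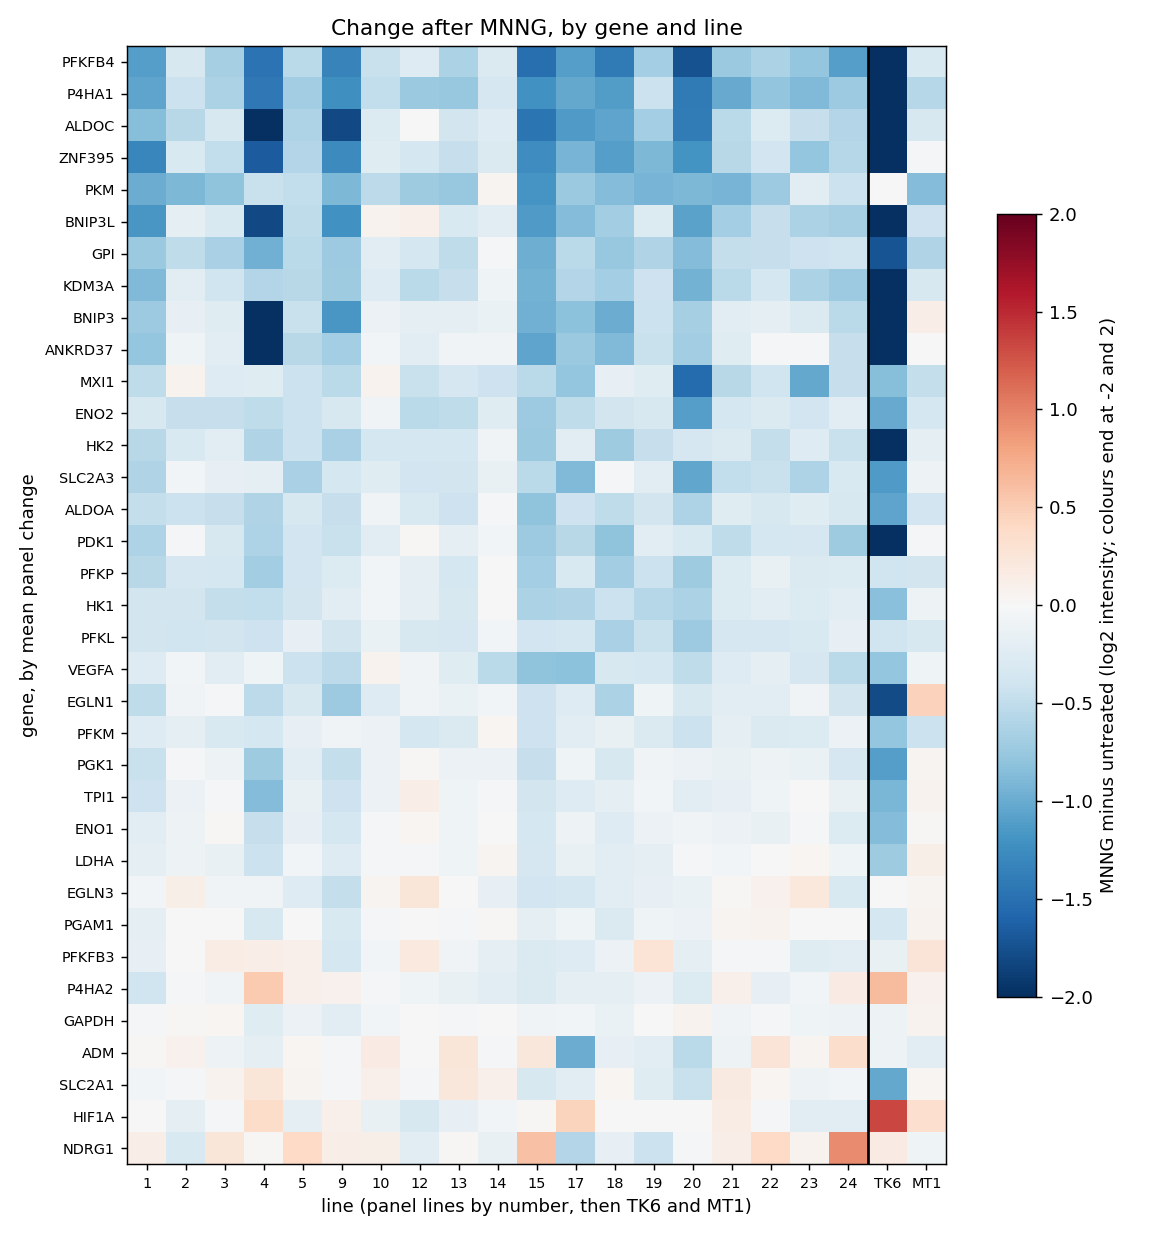
Change after MNNG of the 35 tested genes (rows, ordered by mean panel change) in 19 numbered lines, TK6 and MT1 (columns), as MNNG minus untreated on the log2 scale; blue is lower and red higher, and colours end at -2 and 2. Among the 19 numbered lines, line 4 holds the lowest value of 12 genes and line 14 the highest of 11, while TK6 reaches the end of the colour scale for the 10 genes that fell by over 2, and most MT1 cells are pale.

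Among untreated lines, 34 of 35 members differed (limma F test), where 64.3% of all genes did, PKM being the exception. Over the 24 untreated lines the widest ranges were those of ADM (23.3-fold), P4HA2 (22.4-fold), ANKRD37 (10.1-fold), MXI1 (8.24-fold) and SLC2A3 (6.96-fold), and the narrowest those of GAPDH (1.16-fold), LDHA (1.31-fold) and PGAM1 (1.37-fold). ADM and P4HA2 came close to the floor in their lowest lines, so their ranges are lower limits.

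Whether the fall depended on the untreated level was asked by regressing each gene's change on its untreated level over the 19 lines. A change computed from the same untreated arrays as the level is tied to it by construction, so the level was taken from 1 untreated array and the change from the other. On this basis no member passed the test, in either direction, and over all genes 0.0722% had a slope called below 0 and 0.0939% one called above 0 (limma's moderated variance, Benjamini-Hochberg). At an unadjusted p below 0.05 there were 4 members, SLC2A3, MXI1, PFKL and PFKFB3, against 10.3% of all genes, and the lowest adjusted p of a member was 0.314. The median slope of the members was -0.045, beside -0.066 for all genes, and 21 of 35 slopes lay below 0.

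The steepest slopes were those of NDRG1 (-0.56 ± 0.30 SE), GAPDH (0.48 ± 0.28), HIF1A (-0.48 ± 0.23) and LDHA (-0.44 ± 0.29), in log2 change per log2 unit of untreated level. With the duplicates swapped they were -0.40, 0.59, 0.18 and -0.18, so that of HIF1A changed sign, and again no member was called, beside 0.21% of all genes below and 0.0795% above 0. Of the genes that fell most, PFKFB4 had slopes of -0.11 ± 0.15 and -0.02 ± 0.16 in the 2 orders, P4HA1 -0.23 ± 0.15 and -0.20 ± 0.15, and ALDOC 0.14 ± 0.19 and 0.24 ± 0.16. SLC2A3 was the steadiest, -0.20 ± 0.072 and -0.20 ± 0.059. With the mean of all probe sets it was the 1 member called, at -0.26. These errors leave room for moderate slopes: a miss of the test does not show that the fall is the same at every level.

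When level and change shared both untreated arrays, 36.6% of all genes had a slope called below 0, and the members PKM (-1.24), NDRG1 (-0.85) and SLC2A3 (-0.22) were among them. With separate arrays the slope of PKM was -0.14 ± 0.38, and its untreated duplicates differed within lines by an SD of 0.34, above the SD of 0.19 between the means of the lines. With the mean of both conditions as the level, no member was called, beside 0.34% of all genes below 0 and 1.05% above. The SD between lines was smaller after MNNG in 9 of 35 members, against 42.4% of all genes. These are the genes whose slope on the mean of both conditions lay below 0, so the count is not a separate result. In 11 lines the MNNG level was that of a single array, while untreated levels averaged both duplicates, which can widen the spread after MNNG. Whether MNNG itself changed the spread was not tested. The SD of ALDOC went from 0.68 to 0.97, that of ANKRD37 from 0.96 to 1.16 and that of BNIP3 from 0.43 to 0.67.

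**Figure D3:**
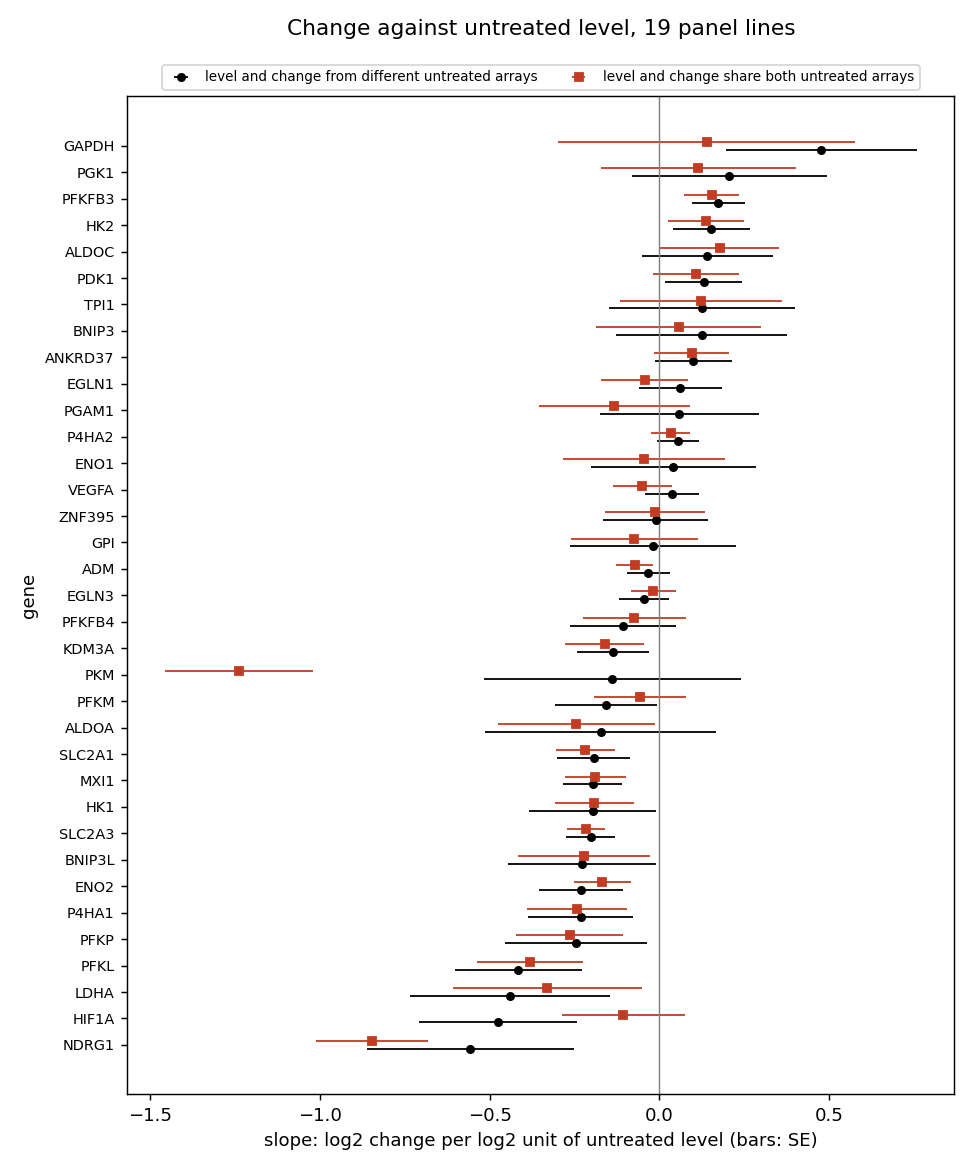
Slope of the change on the untreated level for each of 35 genes over 19 lines, in log2 change per log2 unit, with bars of 1 SE; black points take level and change from different untreated arrays and red squares from the same ones. Most genes lie near 0 both ways, while PKM moves from -0.14 to -1.24 when the arrays are shared.

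MGMT, the enzyme that removes the toxic methyl group from guanine, shares no values with the members and gave another measure of the lines. Its untreated level was 5.12 to 6.77 in lines 4, 9, 20, 18 and 19 and 7.39 to 8.07 in the other 14. The change of 11 members had a positive slope on the MGMT level (a larger fall where MGMT was low) and none a negative one, against 2.67% and 3.11% of all genes (limma), but none passed with median-centred arrays and none without line 4. The 11 were BNIP3 (0.50 ± 0.074 log2 units of change per log2 unit of MGMT), ALDOC (0.55 ± 0.10), ANKRD37 (0.47 ± 0.089), ZNF395 (0.38 ± 0.08), BNIP3L (0.36 ± 0.10), TPI1, EGLN1, PGK1, PGAM1, ENO1 and LDHA, the last 6 with slopes of 0.11 to 0.18. Median-centring turned the slopes of those 6 below 0 (-0.071 to -0.0051) and moved the median slope of all genes from 0.0049 to -0.072, with 84.8% of calls below 0 against 53.8%. Values as deposited gave a median of 0.15, 8.11% of calls below 0 and 14 members above 0. The slopes of BNIP3, ALDOC, ANKRD37 and ZNF395 were 0.28, 0.31, 0.25 and 0.22 after median-centring, below the test's threshold.

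The calls rested on few lines. Of those with lower MGMT, lines 4 and 20 kept 1 MNNG array and lines 9, 18 and 19 kept 2. The lines fall into 2 clusters of MGMT level. A slope over all of them therefore does not by itself tell a gradual relation from a difference between the clusters, and no correlation coefficient is given. Without line 4 the slope of BNIP3 was 0.36 and that of ALDOC 0.50, neither called, and 16 genes were called, against 801 with all lines. Without lines 3, 9 or 13 there were 7 members, without line 20 there were 13 members and 1215 genes, and without the second replicate none. Without lines 4 and 9, the 2 farthest from the median, no member and 3 genes were called. Within the 14 lines of higher MGMT, no gene was called, but MGMT spanned only 7.39 to 8.07 there and errors were larger. The slopes there were 0.67 ± 0.33 for BNIP3, 0.61 ± 0.47 for ALDOC and 0.75 ± 0.39 for ANKRD37. Those of ZNF395 and BNIP3L were 0.43 ± 0.44 and 0.34 ± 0.50. TPI1, EGLN1, PGK1, PGAM1, ENO1 and LDHA had slopes of 0.053 to 0.37. A miss of the test there does not show that the relation is absent. Within those 14 lines alone, 27 members fell after MNNG, beside 13.0% of all genes, PGAM1 being the member lost. PFKFB4 fell there by 0.72 and P4HA1 by 0.77.

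**Figure D4:**
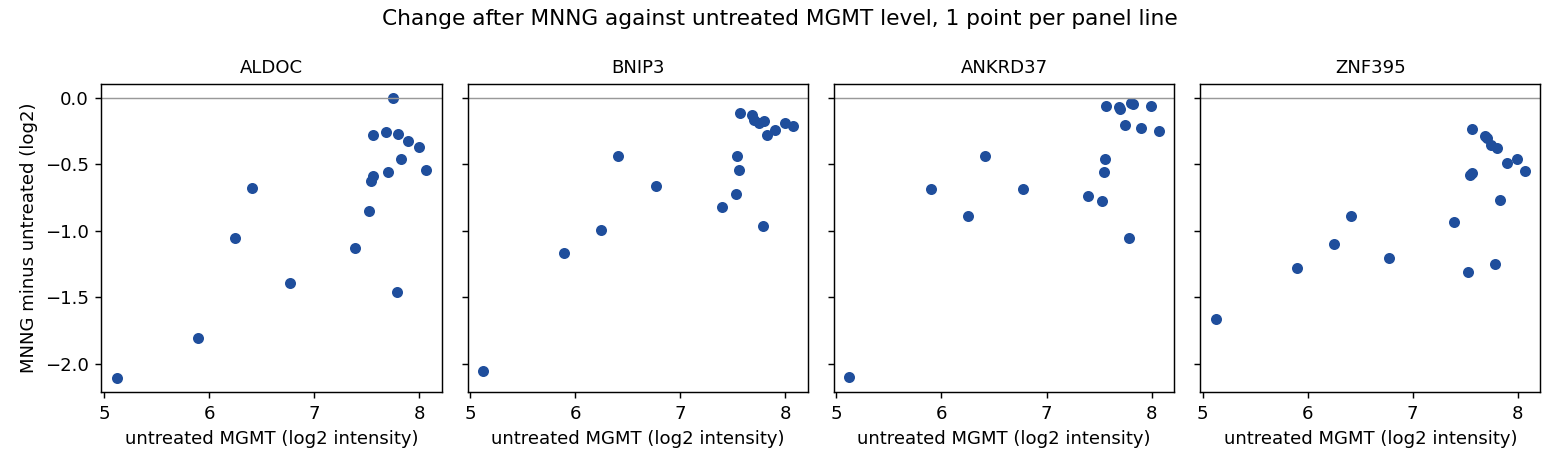
Change after MNNG (MNNG minus untreated, log2, vertical axis) against the untreated MGMT level (log2 intensity, horizontal axis) for ALDOC, BNIP3, ANKRD37 and ZNF395, 1 point for each of 19 panel lines. The 5 lines with MGMT of 5.12 to 6.77 include line 4, the lowest point of every plot, and the other 14 lines sit between 7.39 and 8.07 with changes that overlap those of the 5.

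In TK6 many of these genes fell by over 1 log2 unit, which no panel mean did, though the panel and TK6 were not tested against each other. After MNNG, 26 of 35 members were lower and 2 higher, against 19.5% and 21.6% of all genes (limma, duplicates), and 25 of the 26 were lower in the panel too. Falls of over 1 log2 unit were seen for 17 members (4.09% of all genes) and falls of over 2 units for 10 (0.318%, or 44 genes). On the probe sets used, PFKFB4 had the largest fall of any gene tested in TK6. Its untreated arrays read 9.65 and 9.63 and its MNNG arrays 5.69 and 5.34, a change of -4.12 ± 0.13 (SE, n = 2 against 2), 17.4-fold (adjusted p = 4.69e-27). The MNNG arrays lay near the floor of 5, so the size of this fall is limited by the scale. The other PFKFB4 probe set, with a mean level of 5.82, changed by -0.49 in TK6 and -0.13 in the panel.

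ALDOC fell from 10.44 and 10.71 to 7.29 and 7.05 in TK6, 10.6-fold, ANKRD37 from 9.55 and 9.26 to 6.12 and 6.33, 9.04-fold, and BNIP3 from 11.15 and 10.98 to 8.14 and 8.04, 7.86-fold. PDK1 fell from 9.76 and 9.85 to 7.04 and 7.14 and HK2 from 10.03 and 10.07 to 7.43 and 7.59, 6.57-fold and 5.81-fold. For each of these the untreated and MNNG arrays lay far apart beside the gap between duplicates. P4HA1, BNIP3L, KDM3A and ZNF395 fell too, with changes of -2.50, -2.41, -2.34 and -2.005. The other tested probe sets of ANKRD37 and ZNF395, with mean levels of 5.62 and 5.67, changed by 0.0041 and -0.10. In the panel they changed by 0.0088 and -0.23. Those of HK2, with mean levels of 5.99 and 5.74, changed by 0.056 and 0.19 in TK6. Those of BNIP3 and BNIP3L fell in TK6, at -2.61 and -1.93, and those of PDK1 gave -2.53 and -0.63. EGLN1 fell by 1.79 ± 0.10 (adjusted p = 3.73e-18) and GPI by 1.73 ± 0.16 (adjusted p = 4.77e-12).

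The transporters SLC2A3 and SLC2A1 fell in TK6, with changes of -1.13 and -1.02, SLC2A1 from 9.36 and 9.11 to 8.23 and 8.19 (adjusted p = 2.8e-09), a gene without a call in the panel. On the probe sets used, enzymes further down the pathway fell by about 1 unit or less, in order of size: PGK1 (-1.10), ALDOA (-1.05), TPI1 (-0.91), ENO1 (-0.86), LDHA (-0.72) and PGAM1 (-0.35). Their other probe sets gave -1.89 to -0.25 (PGK1), -1.48 to -0.95 (ALDOA), -1.13 to -0.87 (TPI1) and -2.03 to -0.28 (ENO1). Size and order therefore depend on the probe set. The others were ENO2 (-1.003), MXI1 (-0.85), HK1 (-0.84), PFKM (-0.78), VEGFA (-0.77) and PFKL (-0.39), PFKL losing the test without 1 untreated array (replicate 2) or 1 MNNG array (replicate 2). The members HIF1A and P4HA2 rose. HIF1A went from 9.88 and 9.77 to 11.06 and 11.27, a rise of 1.34 ± 0.12 (adjusted p = 2.11e-12), and P4HA2 from 5.24 and 5.37, near the floor, to 5.91 and 5.96. PKM read 11.02 and 11.72 untreated and 11.81 and 10.93 after MNNG, duplicates that overlap across conditions. Its other probe set was called lower in TK6, at -0.56 (limma, adjusted p = 0.00593), while the 1 used did not pass the test. GAPDH, PFKP, PFKFB3, EGLN3, ADM and NDRG1 did not pass the test either, with changes of -0.40 (PFKP) to 0.17 (NDRG1).

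In MT1, with 1 MNNG array, 4 members were lower and 1 higher, against 1.21% and 2.36% of all genes. P4HA1, MXI1, PFKM and KDM3A fell by 0.57, 0.47, 0.42 and 0.32, and EGLN1 rose by 0.46. None of these 5 passed without the untreated array of replicate 1, the lone MNNG array being taken to vary like the other groups. PFKFB4 read 6.65 and 6.95 untreated and 6.50 after MNNG, and BNIP3 8.12 and 7.98 and 8.18. The difference between the TK6 and MT1 responses itself was called for 25 members, 23 with a lower change in TK6 and 2 (HIF1A and P4HA2) with a higher one, against 12.5% and 12.2% of all genes (limma interaction). It was largest for PFKFB4, at -3.82 ± 0.20 (adjusted p = 1.87e-18), ANKRD37, at -3.18 ± 0.18, and BNIP3, at -3.10 ± 0.17. With median-centred arrays 12 members stayed lower, PFKFB4, ANKRD37 and BNIP3 among them, and the calls over all genes were 31.5% lower against 50.7%. Values as deposited shifted the median of all genes to -0.20 for this difference and to 0.12 for TK6, by over 0.1 each, and left 20 members lower.

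The lines did not start alike. Untreated, 26 members were higher in TK6 than in MT1 and 1 (PFKM) lower, against 11.7% and 13.6% of all genes (limma, a contrast added after the data were seen). EGLN1 read 10.19 and 10.27 in untreated TK6 and 7.04 and 7.21 in untreated MT1, a difference of 3.10 ± 0.10. BNIP3 read 11.15 and 10.98 and 8.12 and 7.98, and PFKFB4 9.65 and 9.63 and 6.65 and 6.95. HIF1A was higher in untreated TK6 as well, 9.88 and 9.77 against 7.84 and 7.66. For BNIP3 the MNNG-treated TK6 arrays, 8.14 and 8.04, lay beside the untreated MT1 arrays, while PFKFB4, PDK1 and HK2 went below them and EGLN1 stayed above. The same untreated TK6 arrays enter both the response and this difference, so the values are set side by side only, and which of mismatch repair, the untreated level or another difference between TK6 and MT1 goes with the response cannot be told apart.

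**Figure D5:**
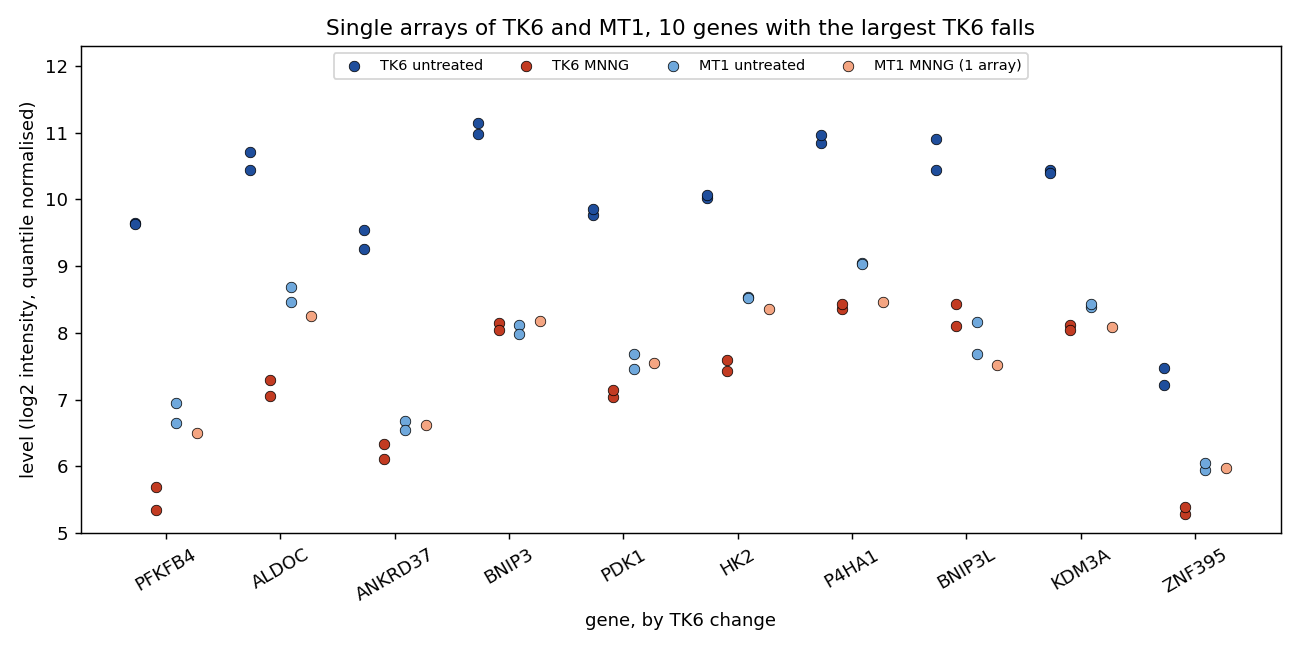
Level (log2 intensity, vertical axis) of the 10 genes with the largest falls in TK6, 1 point for each array of TK6 and MT1, untreated and after MNNG (MT1 has 1 MNNG array). Untreated TK6 is the highest group for every gene, and MNNG-treated TK6 lies at or below MT1 for most, as for PFKFB4 at 5.69 and 5.34 against 6.65 and 6.95 in untreated MT1.

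Other genes of these pathways, in lists chosen with earlier results of these data known, gave a mixed picture. Of 33 other hypoxia-inducible genes, 20 were lower and 3 higher in the panel (median -0.16), and 21 lower and 2 higher in TK6. Over all genes the shares called lower and higher were 13.8% and 28.7% in the panel and 19.5% and 21.6% in TK6, which are the background for each list here. AK4, a mitochondrial adenylate kinase, KDM4C, a histone demethylase, HILPDA, a lipid droplet protein, and BHLHE40, a repressor, fell most in the panel, by 0.54, 0.44, 0.41 and 0.39. In TK6 the largest falls were those of STC2, encoding stanniocalcin, at -2.69, and HILPDA, at -2.60. Of 15 genes that regulate HIF, 2 were lower and 6 higher in the panel, and 3 lower and 3 higher in TK6, counts near the shares over all genes. SIAH2, a ubiquitin ligase for the prolyl hydroxylases, fell by 0.45, and the coactivator CREBBP rose by 0.36, ELOC by 0.23 and RBX1 by 0.21.

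Of 13 other glycolysis and lactate genes, 3 were lower and 2 higher in the panel, and 4 lower and 5 higher in TK6, again near the shares over all genes (13.8% and 28.7%, and 19.5% and 21.6%). TIGAR, a p53 target that lowers fructose 2,6-bisphosphate, rose in 19 of 19 lines, by 0.48 ± 0.062, and by 2.48 ± 0.075 in TK6. PGM1, phosphoglucomutase, fell by 0.36 and changed by -2.26 in TK6. BPGM, which diverts a glycolytic intermediate to 2,3-bisphosphoglycerate, rose by 0.26 and by 0.74 in TK6. SLC2A6, a transporter of the GLUT family, fell by 0.12 in the panel and rose by 1.49 in TK6. Of 23 genes of the citrate cycle and pyruvate oxidation, 7 were lower and 9 higher in the panel, where 13.8% and 28.7% of all genes were, with a median of 0.029, close to that of all genes. DLST and OGDH, subunits of 1 enzyme complex, fell by 0.62 and 0.57, and the pyruvate carrier MPC1 rose by 0.35. In TK6, 15 of them were lower and 2 higher, against 19.5% and 21.6%. Of 6 pentose phosphate genes, 2 were lower and 1 higher in the panel and 4 lower and 0 higher in TK6. TKT and PGLS fell, by 0.35 and 0.17, and RPIA rose by 0.18.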

How the data were processed

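Affymetrix arrays measured RNA of 26 untreated and MNNG-treated lymphoblastoid lines (104 arrays). The authors deposited 1 intensity value per probe set and array, on a linear scale, and PLIER is named in the submitters' processing notes; no further settings are stated there. From these, log2(intensity + 16) was quantile-normalised over 82 arrays, after leaving out MNNG arrays whose cre 5′ control lay over 2 log2 units below its partner. Probe sets with 1 symbol in the platform annotation were used (41097 of 54675; 1801 have several and 11777 none), and each gene took its probe set with the highest mean. The 30% of genes with the lowest mean (below 5.64) were left out.

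The panel change was tested over the line means of the 19 lines, and TK6, MT1 and their difference in 1 model of all groups of single arrays (limma 3.58.1 with a variance trend, R 4.3.3). Slopes used least squares with limma's moderated variance, on 19 lines. P-values were Benjamini-Hochberg adjusted over 13842 genes, with 0.05 as the threshold. The fits were tested on simulated data. The number of arrays limits the precision.

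Members and lists were chosen with earlier results of these data known. All members are accounted for. The text also names the 4 steepest members where no slope was called, the 8 called members with the largest F between lines, and at most 4 called genes with the largest change of each other list. Alternatives were other pseudocounts, scalings, filters, summaries of probe sets, array sets and blocks, and leaving out lines or replicates. Promoters are RefSeq sequences of GRCh38.p14, searched with Python 3.11.15.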

Additional observations from a re-analysis of the deposited data

Results flagged for a closer look

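The change after MNNG differed between TK6 and MT1 for 25 members (limma interaction in the model of all groups, adjusted p below 0.05), and the values are changes in TK6 minus changes in MT1 on the log2 scale. They rest on 2 MNNG arrays of TK6 and 1 of MT1.

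The regulator of phosphofructokinase PFKFB4 had the largest difference, at -3.82. Among glycolytic enzymes, ALDOC followed at -3.08 and HK2 at -2.36. PGK1 (-1.15), GPI (-1.13), TPI1 (-0.99), ENO1 (-0.89), LDHA (-0.83), HK1 (-0.73) and ALDOA (-0.66) were smaller. PGAM1 (-0.42) and PFKM (-0.36) were the smallest, and PFKM also fell in MT1. The glucose transporters SLC2A1 and SLC2A3 differed by -1.06 and -1.03.

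Of the other HIF targets, ANKRD37 (-3.18), BNIP3 (-3.10) and PDK1 (-2.69) came first. EGLN1 (-2.25) fell in TK6 and rose in MT1. KDM3A (-2.01), BNIP3L (-1.995), ZNF395 (-1.98) and P4HA1 (-1.93) lay close together, and VEGFA was at -0.69. In the opposite direction stood HIF1A (1.00) and P4HA2 (0.54), which rose in TK6.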

How the results depend on the processing

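Under the alternatives without the 22 arrays of the failed control, the panel fall of members stayed between 21 and 30 genes lower and none higher, leaving aside the count by probe set (14340 called, 55 lower and 2 higher of the members). The count of all genes called, 5892, was 3289 with median-centred arrays, 3101 without the line as block, 2415 in the 8 lines with both MNNG arrays, and 1181 (without replicate 1) to 6267 when 1 replicate or line was left out, with 21 to 29 members lower and 0 higher. The cause was not tested, and the last alternatives also used fewer arrays.

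Values as deposited called 3623 genes in TK6, 99 in MT1 (0 members lower), 1294 for the TK6 minus MT1 difference (1 member higher), 1591 between untreated TK6 and MT1 (0 members lower), 54 for the difference in response between lines (6 members), 5852 for untreated lines, 7 for the slope on the untreated level and 456 for the slope on MGMT. Median-centred arrays gave 67 genes in MT1 (1 member lower, 0 higher), 1682 for the TK6 minus MT1 difference (12 members lower), 2057 between untreated TK6 and MT1 (0 members lower), 372 for the response between lines (5 members) and 0 members for MGMT, where the slopes of EGLN1 (-0.0051), TPI1 (-0.0069), PGK1 (-0.048), LDHA (-0.067), ENO1 (-0.068) and PGAM1 (-0.071) changed sign. The cause was not tested.

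For the slope on the untreated level, 23 genes were called, and 10 with a pseudocount of 1, 57 with 64, 15 with the 50% filter, 54 with the mean of all probe sets (1 member lower), 40 with duplicates swapped, 192 with the mean of both conditions as level and 5145 with shared untreated arrays (3 members lower). In MT1, 0 members were higher with a pseudocount of 64 or the mean of all probe sets and 2 with the 50% filter, and the mean of all probe sets left 1 member higher in the TK6 minus MT1 difference. For MGMT, 3 genes and 0 members were called without the 2 farthest lines, and 0 genes and 0 members in the 14 upper lines.

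Adding the arrays that the cre rule left out changed most counts: 9687 in the panel, 464 in TK6 (7 members lower, 0 higher), 14 in MT1 (0 lower, 0 higher), 126 for TK6 minus MT1 (3 lower, 0 higher), 178 between untreated TK6 and MT1 (0 lower, 7 higher), 264 between lines (2 members), 113 for the slope (2 members lower) and 9 for MGMT (0 members). There the signs changed for TPI1 in the panel (0.0071), for EGLN1 (-0.64), KDM3A (0.21) and MXI1 (0.22) in MT1, for ENO1 (1.63), GPI (0.39), PFKM (0.43), PGAM1 (2.32) and VEGFA (0.21) between TK6 and MT1, for the slope of P4HA2 (-0.64) and for PGK1 on MGMT (-0.046).

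Leaving out 1 line, array or set of replicates gave 4794 to 4983 genes in TK6 (25 to 27 members lower, 2 higher), 212 to 326 in MT1 (0 to 3 lower, 0 to 1 higher), 2892 to 3139 for TK6 minus MT1 (20 to 23 lower, 1 to 2 higher), 2741 to 2936 between untreated TK6 and MT1 (23 to 25 higher, 1 lower), 472 to 1076 between lines (13 to 18 members), 11 to 38 for the slope (0 members) and 2 (without replicate 2) to 1215 (without line 20) for MGMT (0 to 14 members higher, 0 to 1 lower), where single lines gave 16 (without line 4) or more.

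Same-numbered arrays deviated together, with a correlation over 0.1, in 2 of the 9 lines with both MNNG arrays, so the numbers were not used to pair arrays. Untreated replicates still differed on average over the 19 lines for some members, by 0.145 for BNIP3 (SD 0.105) and -0.188 for TPI1 (SD 0.179). For LDHA the difference was 0.0030 (SD 0.033). In the 11 lines with 1 MNNG array such a difference enters the change. With the replicate block, 5913 genes were called in the panel (29 members lower), 6017 in TK6, 3787 for TK6 minus MT1, and 740 in MT1, with 2 members higher.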
